A study of Mus musculus with 9 samples.

Results

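The 32 genes described here build, sense or move cholesterol and fatty acids. Their transcripts were compared between sorted germinal center (GC) B cells with 2, 1 or 0 floxed alleles of Foxo1, which encodes a forkhead transcription factor. They were chosen by name as 3 regulators, 16 enzymes of the sterol branch, 2 genes of sterol handling and 11 genes of the fatty acid branch. Each gene was represented by its brightest probe set with a single gene symbol. Of the 32 genes, 31 had such a probe set and Acat2 was not analysed here. They are 31 of 10331 genes tested in the series.

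Each of 9 Affymetrix mouse arrays was hybridised with amplified RNA of GC B cells sorted from the spleen (B220hi, CD95hi, PNAhi), with 3 arrays per genotype. The KO group was FOXO1f/f, Cg1-Cre, the HET group was FOXO1f/+, Cg1-Cre, and the WT group was FOXO1+/+, Cg1-Cre, so all animals carried the same Cre, which is driven from the Cg1 antibody locus and acts in GC B cells. Mice were 10 weeks old, received sheep red blood cells on days 0 and 5, and gave spleen cells on day 12. The sample labels give 1 animal for an array, whereas the design text mentions pooled splenic cells, so whether an array stands for 1 animal is unclear. The p-values take the array as the unit and weigh genotype differences against the spread between arrays within genotypes.

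Cholesterol is built from acetyl-CoA through mevalonate, farnesyl diphosphate, squalene and lanosterol, and fatty acids are built from the same acetyl-CoA by malonyl-CoA condensation, elongation and desaturation. Most of these enzymes are driven by the sterol regulatory element binding proteins (SREBPs), which leave the endoplasmic reticulum to be cleaved when its membrane is poor in sterol, while INSIG proteins hold them back when sterol is plentiful. A second arm, the liver X receptors (LXRs), senses oxysterols and drives genes of cholesterol export. GC B cells divide fast and need both lipids for new membrane.

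In KO vs WT, 2 of the 15 sterol branch genes measured were called and 13 did not pass the test, beside 11.9% of all genes called. The largest called changes of members were those of Abca1, Fads2 and Fabp5. Abca1, the exporter of cell cholesterol, rose 2.29-fold in KO vs WT. Fads2, the desaturase that starts the making of long polyunsaturated fatty acids, and Fabp5, a fatty acid carrier, fell to 0.638 and 0.668 of WT. Dhcr7, the last reductase of cholesterol synthesis, rose and Hsd17b7, a ketosteroid reductase of the same pathway, fell, both by under 0.5 on the log2 scale. No member was called in HET vs WT.

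By limma with Benjamini-Hochberg adjustment over all 10331 genes, 5 of 31 members were called in KO vs WT, 2 higher and 3 lower, where 11.9% of all genes were called (6.09% higher and 5.85% lower). In KO vs HET, 4 of 31 were called, 1 higher and 3 lower, where 9.01% of all genes were called (4.56% higher and 4.45% lower). In HET vs WT, no member of 31 passed by limma (0 called; 2 had an unadjusted p under 0.05), where 0.00968% of all genes were called. The arrays of the groups did not overlap for 6 members higher and 4 lower in KO vs WT (16.2% and 13.5% of all genes), for 1 higher and 0 lower in HET vs WT (4.96% and 4.89%) and for 1 higher and 5 lower in KO vs HET (14.5% and 13.1%). Apart from the HET vs WT comparison, where 1 gene in all was called, the members' shares of calls are near those over all genes. The KO vs WT and KO vs HET comparisons share the KO arrays. The KO vs WT count was 3 without WT replicate 1, 3 without WT replicate 2, 2 without WT replicate 3 and 3 with eBayes without trend. The median signal was 47.4 to 48.0 on KO arrays, 44.0 to 44.96 on HET arrays and 42.9 to 44.8 on WT arrays, and centring each array on its median moved the median change of all genes to -0.11 in KO vs WT. It turned the split of calls over all genes from 629 higher and 604 lower to 398 higher and 1683 lower in KO vs WT, and from 471 and 460 to 293 and 1080 in KO vs HET.

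The median log2 change of the sterol branch in KO vs WT was -0.022 over 15 genes and that of the fatty acid branch 0.022 over 11 genes, beside 0.011 over all genes tested. In KO vs HET the medians were -0.12 and -0.026, beside 0.010 over all genes. The spread within the fatty acid branch was wider, from -0.79 to 0.19 in KO vs WT, against -0.41 to 0.37 in the sterol branch.

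**Figure D1:**
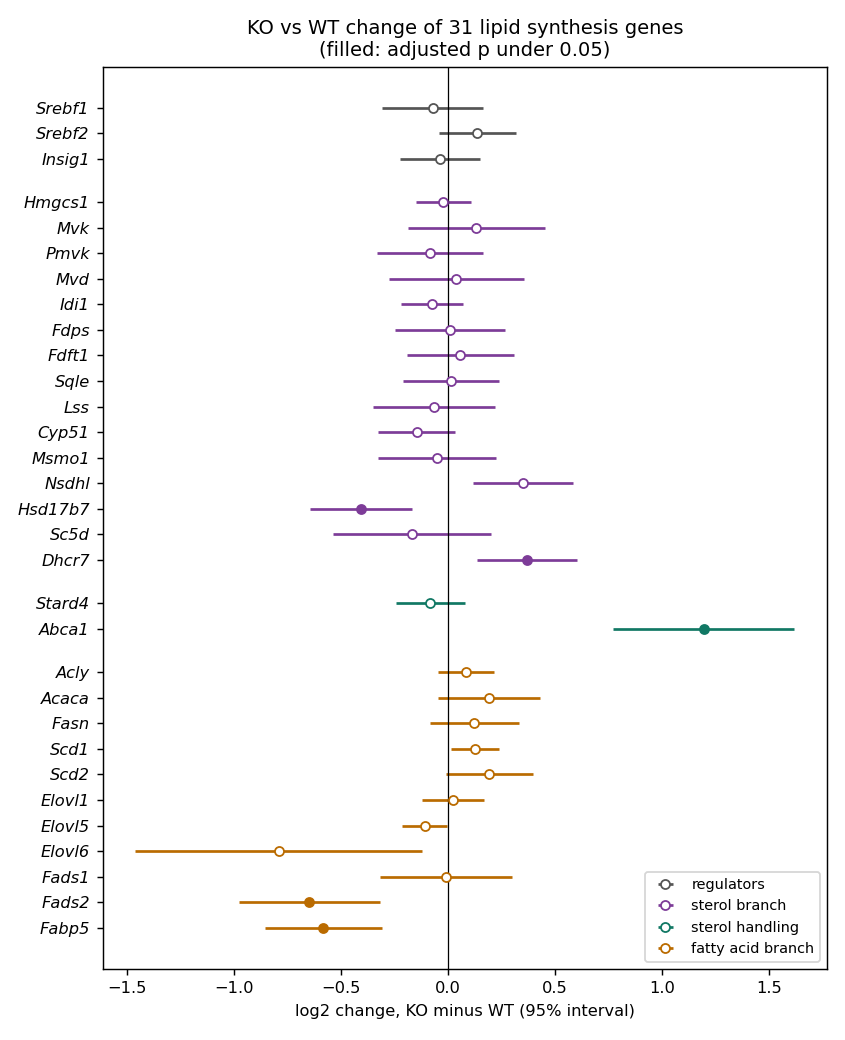
Log2 change of each member in KO vs WT (x axis) with its 95% interval from limma, by group of genes; filled points passed an adjusted p of 0.05. Abca1 stands alone to the right at 1.20, Fads2, Fabp5 and the uncalled Elovl6 lie to the left, and most sterol branch genes sit within 0.2 of 0.

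The targeted gene was lower as labelled: Foxo1 had signals of 983, 1392 and 727 in KO, 3633, 3581 and 3479 in HET and 5432, 5299.9 and 5616 in WT. All 3 KO arrays lay below all HET arrays and these below all WT arrays. Foxo1 fell, its log2 change in KO vs WT being -2.45 (SE 0.16, limma adjusted p = 2.41e-06). In HET vs WT its change of -0.61 (SE 0.16) did not pass over all genes (adjusted p = 0.93), although the arrays did not overlap, and passed with only these genotypes in the fit (adjusted p = 0.000943; 0.000943 to 1 across the alternatives). Signal remained in KO cells, and whether this probe set lies in the floxed segment was not analysed here. Of 11 GC B cell identity genes 9 had a single-symbol probe set, and 0 of the 9 were below the array median on any array. In KO vs WT, Fas (the CD95 of the sort) rose, Gcsam and Rgs13 fell and 6 did not pass. Of all genes, 6.09% rose and 5.85% fell.

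The regulators did not pass the test in any comparison (limma, 0 of 3 at an unadjusted p under 0.05 in each of the 3 comparisons). Srebf2, which encodes the SREBP that mainly drives sterol genes, had signals of 2357, 2379 and 2264 in KO, 2170.1, 2571 and 2001 in HET and 2197, 2089 and 2086 in WT. All 3 KO arrays lay above the WT arrays, but HET arrays spanned both, and the change of 0.14 in KO vs WT had an adjusted p of 0.335. In a dimmer Srebf2 probe set, with a KO vs WT change of 0.17, KO replicate 2 (1612) lay below WT replicate 2 (1666). Srebf1, whose proteins mainly drive fatty acid genes, had signals of 2016, 1649.8 and 1476 in KO, 1633, 1871 and 1998 in HET and 1877, 1807 and 1679 in WT. Its genotypes overlapped, with a change of -0.071 (95% interval -0.31 to 0.17, adjusted p = 0.741 in KO vs WT). Insig1, itself a sensitive SREBP target that holds SREBPs in the endoplasmic reticulum, had signals of 6335, 5386 and 6093 in KO, 6707, 7553 and 5863 in HET and 6197, 6261 and 5796 in WT. The Insig1 arrays of the 3 genotypes also overlapped (KO vs WT -0.038, 95% interval -0.22 to 0.15, adjusted p = 0.835).

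Of the 15 sterol branch genes measured, Dhcr7 rose, Hsd17b7 fell and 13 did not pass in KO vs WT (6.09% of all genes rose and 5.85% fell). For 11 of these 13 the whole 95% interval lay within 0.5 of 0 on the log2 scale. Hmgcs1, the synthase that opens the mevalonate pathway, had the narrowest such interval: its KO mean was 7166 ± 202, its HET mean 7437 ± 353 and its WT mean 7289 ± 545 (SD, n = 3 each), a KO vs WT change of -0.022 with an interval of -0.15 to 0.11. Its dimmest probe set gave 0.56 in KO vs WT with overlapping arrays, and its other probe sets gave -0.011, 0.0068 and -0.057. The promoter of Hmgcs1 is shown because it holds the letters of a sterol regulatory element, the kind of site SREBPs bind. The sequence is the 250 bases before the start in RefSeq on GRCm38.p6, chr13:119690101-119690350, + strand, with the spelling TCACNCCAC in capitals.

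Hmgcs1: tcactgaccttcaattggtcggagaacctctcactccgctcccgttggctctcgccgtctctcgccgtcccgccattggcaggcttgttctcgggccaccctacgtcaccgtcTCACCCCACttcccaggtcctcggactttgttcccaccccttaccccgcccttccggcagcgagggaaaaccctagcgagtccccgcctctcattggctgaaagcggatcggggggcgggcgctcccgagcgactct

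TCACNCCAC, searched on both strands in the 250 bases before a start, was in 1.05% of 32851 promoters and in 1 of the 30 promoters of the 24 members that had a promoter sequence. The other 23 members with a promoter sequence have no such letters in that window, which says nothing about whether SREBPs act on them.

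Next along the path, Mvk, mevalonate kinase, had KO, HET and WT means of 216 ± 31.5, 247 ± 11.6 and 197 ± 20.8 (SD, n = 3 each). All 3 HET arrays of Mvk lay above all WT arrays, with a HET vs WT change of 0.33 that did not pass (adjusted p = 0.998). A dimmer Mvk probe set gave -0.027 in HET vs WT, with overlapping arrays, and -0.20 in KO vs WT. Pmvk and Mvd, the 2 steps after Mvk, had KO vs WT changes of -0.084 and 0.039. A dimmer Mvd probe set gave 0.39, with signals of 133, 115 and 144 in KO and 106, 90.9 and 102 in WT. Idi1, the isomerase that readies the isoprene unit, had signals of 2978, 3069.8 and 3361 in KO, 3618, 3577 and 3474 in HET and 3167, 3582 and 3159.7 in WT. Its KO arrays all lay below the HET arrays (KO vs HET -0.18, adjusted p = 0.115), and overlapped the WT arrays. In a dimmer Idi1 probe set the KO and HET arrays overlapped (KO vs HET -0.10). Fdps and Fdft1, which make farnesyl diphosphate and squalene, had KO vs WT values of 0.0086 and 0.057 and did not pass.

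Sqle, the squalene epoxidase that is a control point of the branch, had a KO mean of 1196 ± 158, a HET mean of 1276 ± 105 and a WT mean of 1179 ± 74.6 (SD, n = 3 each; KO vs WT 0.014, 95% interval -0.21 to 0.24). Lss, which closes the ring to lanosterol, had a KO vs WT change of -0.065, with -0.29 in KO vs HET (adjusted p = 0.21). Its 2 dimmer probe sets gave 0.27 and 0.23 in KO vs WT. Cyp51 and Msmo1, which remove methyl groups from lanosterol, had KO vs WT values of -0.15 and -0.051 and did not pass (adjusted p = 0.287 and 0.851), and centring each array on its median put Cyp51 at -0.27 (adjusted p = 0.0414; 0.0414 to 0.836 across the alternatives). Sc5d, a desaturase near the end of the path, had a KO vs WT value of -0.17 with a wide interval of -0.54 to 0.20.

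Nsdhl and Hsd17b7 act next to each other in the removal of methyl groups at carbon 4 of the sterol, and their values ran opposite ways. Nsdhl had signals of 1460.2, 1092 and 1239 in KO, 964, 1168 and 1094 in HET and 1017, 1001 and 935 in WT. Its KO arrays all lay above its WT arrays, while KO replicate 2 lay among the HET arrays, and its KO vs WT change of 0.35 missed the threshold (SE 0.11, adjusted p = 0.0539). It passed in 3 settings, among them without KO replicate 2 (0.45, adjusted p = 0.0213) and without HET replicate 1 (0.35, adjusted p = 0.047; 0.0213 to 0.179 across the alternatives).

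Hsd17b7 had signals of 1083, 802 and 974 in KO, 1054, 1271 and 1241 in HET and 1310.2, 1244 and 1217 in WT. All KO arrays lay below all WT arrays, and KO replicate 1 lay among the HET arrays. It fell, its log2 change in KO vs WT being -0.41 (SE 0.11, limma adjusted p = 0.03), and the KO vs HET change of -0.32 did not pass (adjusted p = 0.0909). The next probe set by brightness had signals of 187, 192 and 262 in KO, 219, 265 and 313 in HET and 387, 361 and 381 in WT and a larger KO vs WT difference, -0.83 on the log2 scale. The KO vs WT call did not hold without KO replicate 2 or without WT replicate 1, 2 or 3 (adjusted p = 0.0989, 0.0916, 0.0801 and 0.07; 0.00271 to 0.0989 across the alternatives), nor with eBayes without trend (adjusted p = 0.072). In KO vs HET it passed without KO replicate 1 (adjusted p = 0.0411; 0.0222 to 0.278 across the alternatives).

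Dhcr7, which turns 7-dehydrocholesterol into cholesterol, had signals of 3043, 3044 and 2583 in KO, 2104, 2848 and 2405 in HET and 2208, 2456 and 2044 in WT. All KO arrays lay above all WT arrays, and HET replicate 2 lay inside the KO range. It rose by 0.37 in KO vs WT on the log2 scale (SE 0.11, limma adjusted p = 0.0434). The call did not hold without KO replicate 1 or 2, HET replicate 3, or WT replicate 1 or 3 (adjusted p = 0.127, 0.133, 0.0569, 0.101 and 0.156; 0.0209 to 0.156 across the alternatives). It was also lost with each array centred on its median (0.25, adjusted p = 0.12), without the filter, with eBayes without trend and with array weights (adjusted p = 0.0664, 0.114 and 0.051).

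**Figure D2:**
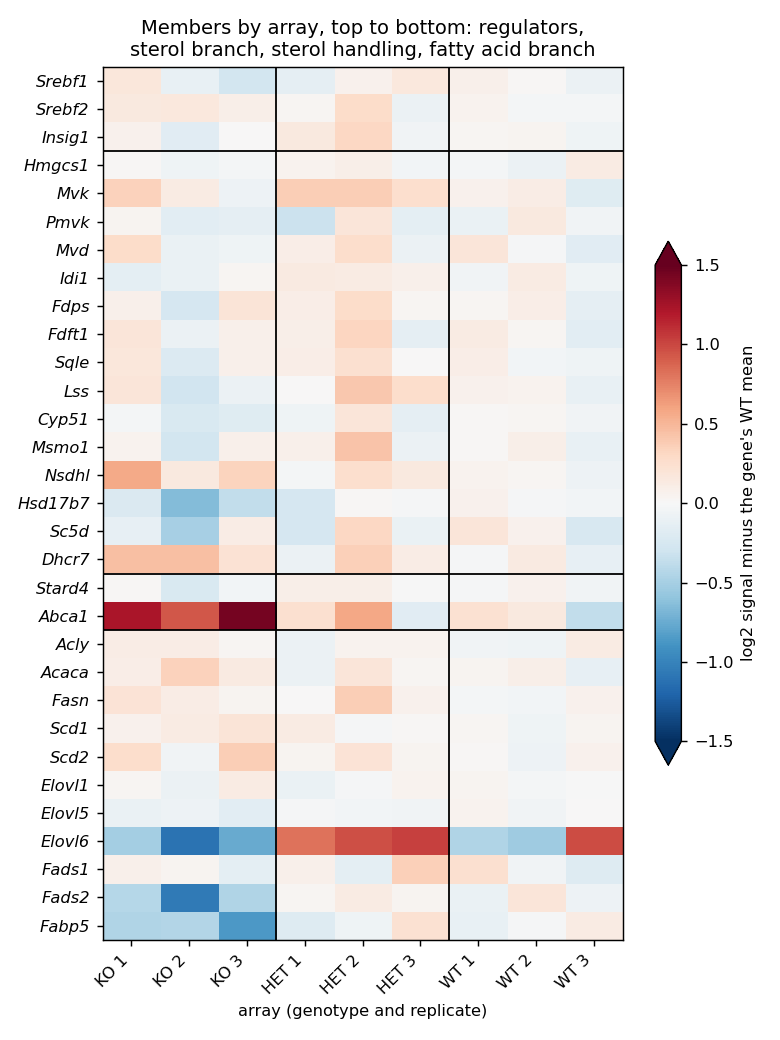
Log2 signal of each member (rows) minus its own WT mean on each of the 9 arrays (columns, KO, HET, WT), red above and blue below. Rows of Abca1, Fads2, Fabp5 and Elovl6 carry most of the colour, and the column of HET replicate 2 is reddish through the sterol branch.

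Sterol genes also differed between arrays of the same genotype, a pattern picked out after the values were seen. HET replicate 2 was the highest of the 9 arrays for 8 of 15 sterol branch genes, against 10.1% of all genes tested, and for 1 of 11 fatty acid genes. KO replicate 2 was the lowest for 7 of 15 sterol genes, against 15.1% of all genes, and WT replicate 3 for 5 of 15, against 12.2%. The sterol branch median lay 0.26 above the WT mean on HET replicate 2, and its deviation was -0.16 on KO replicate 2 and -0.11 on WT replicate 3. On HET replicate 2 the signals of Insig1 and Srebf2 (7553 and 2571) were also the highest of the 9 arrays.

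The 2 branch medians did not run in parallel over the arrays. The sterol median minus the fatty acid median, each as a deviation from the WT mean, was 0.011, -0.10 and -0.0022 on KO arrays, 0.036, 0.21 and -0.075 on HET arrays and 0.031, 0.10 and -0.14 on WT arrays. The 3 genotypes overlapped in this difference.

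**Figure D3:**
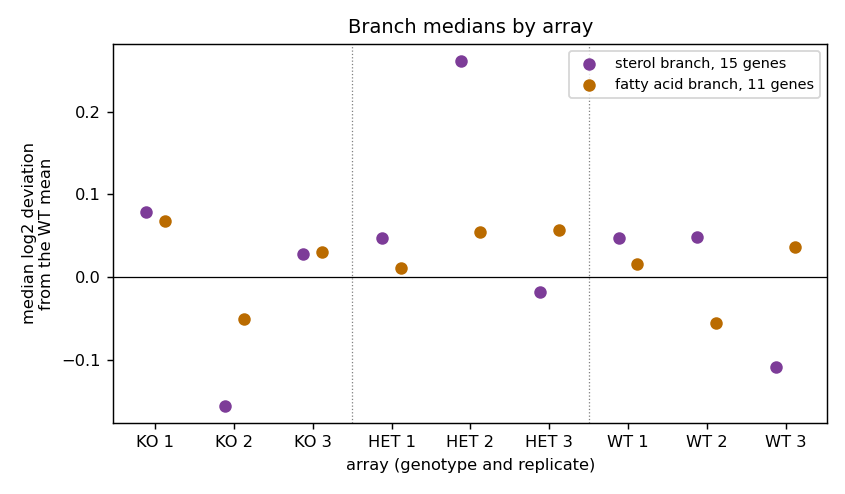
Median log2 deviation from the WT mean on each array (x axis) for the sterol branch (15 genes) and the fatty acid branch (11 genes). The sterol medians range from -0.16 on KO replicate 2 to 0.26 on HET replicate 2, and the fatty acid medians from -0.056 to 0.067.

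Abca1 showed the largest rise among the members. Its product loads cholesterol and phospholipid onto apolipoprotein A-I at the cell surface. Signals were 1816, 1483 and 2116 in KO, 923, 1168 and 690.4 in HET and 912, 860.2 and 602 in WT. All 3 KO arrays lay above all 6 other arrays, and HET and WT arrays overlapped. On the log2 scale Abca1 rose by 1.20 in KO vs WT (SE 0.19, 95% interval 0.77 to 1.62, limma adjusted p = 0.0017) and by 0.98 in KO vs HET (SE 0.19, adjusted p = 0.00821), and both calls were kept in all 22 alternative settings. The HET vs WT change was 0.22 (adjusted p = 0.998). The other 2 Abca1 probe sets were dim, with mean signals of 28.1 and 17.3. Stard4, a carrier that moves cholesterol between membranes inside the cell and an SREBP target, had KO, HET and WT means of 2089 ± 182, 2294 ± 88.5 and 2207 ± 97.5 (SD, n = 3 each) and did not pass (KO vs WT -0.082, adjusted p = 0.534).

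Abca1, Fasn and Srebf1 are known LXR targets, and their promoters are shown because each holds an LXR element, a direct repeat with a spacer of 4 bases. The sequences are the 250 bases before a RefSeq start on GRCm38.p6, all on the - strand and written 5′ to 3′: Abca1 at chr4:53159896-53160145, the third of 3 listed starts of Srebf1 at chr11:60210472-60210721, and Fasn at chr11:120824548-120824797. Capitals mark the match to GGTTACT, any 2 bases and CGGTCA, which lies on the opposite strand in all 3.

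Abca1: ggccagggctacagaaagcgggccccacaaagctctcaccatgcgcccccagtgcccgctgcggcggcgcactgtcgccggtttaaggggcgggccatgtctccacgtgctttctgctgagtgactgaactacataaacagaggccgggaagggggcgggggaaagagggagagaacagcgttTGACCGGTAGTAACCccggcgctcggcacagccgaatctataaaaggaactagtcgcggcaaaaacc

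Srebf1: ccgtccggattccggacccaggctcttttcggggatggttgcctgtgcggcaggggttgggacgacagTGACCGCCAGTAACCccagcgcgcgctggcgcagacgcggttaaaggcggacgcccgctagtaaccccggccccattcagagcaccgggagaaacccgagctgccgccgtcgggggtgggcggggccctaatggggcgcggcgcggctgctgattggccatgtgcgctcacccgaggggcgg

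Fasn: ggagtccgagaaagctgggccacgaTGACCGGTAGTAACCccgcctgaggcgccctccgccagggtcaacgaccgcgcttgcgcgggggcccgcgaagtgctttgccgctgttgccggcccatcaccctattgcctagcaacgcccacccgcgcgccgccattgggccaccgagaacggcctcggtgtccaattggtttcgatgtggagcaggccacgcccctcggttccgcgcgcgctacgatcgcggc

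The match begins 67 bases before the start in Abca1, 182 in Srebf1 and 225 in Fasn, and the Abca1 and Fasn matches have the same letters. Of 32851 promoters 3 (0.00913%) held this spelling, and these were the 3. The spelling was written from what is known of the elements of such genes, after other spellings had been tried, so its rarity and its place in these genes are no finding. Of the 3 genes, Abca1 was called in KO vs WT, and Srebf1 (-0.071, 95% interval -0.31 to 0.17) and Fasn (0.12, 95% interval -0.086 to 0.33) were not. The Srebf1 probe set was not assigned to one of its starts here.

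Outside the 32, a list of 59 further genes of lipid synthesis, uptake and transport was read in the same way, of which 54 had a single-symbol probe set and 40 were tested. In KO vs WT, 3 rose, 2 fell and 35 did not pass (limma), where 6.09% of all genes rose and 5.85% fell. The median change was -0.052 beside 0.011 over all genes. The listed genes that rose include 2 other lipid transporters. Cd36, a surface receptor for fatty acids and oxidised lipoprotein, had signals of 1057, 1350.5 and 809 in KO, 500.3, 402 and 351 in HET and 400.3, 348 and 397 in WT, with every KO array above every HET and WT array, and rose by 1.46 (SE 0.17, adjusted p = 0.000167). Abcg1, which exports cholesterol and like Abca1 is an LXR target, had signals of 767, 664 and 829 in KO, 469, 425 and 338 in HET and 458, 424 and 346 in WT, again with no overlap between KO and the others, and rose by 0.88 (SE 0.15, adjusted p = 0.00181). Mylip, another LXR target, had a change of -0.22 and did not pass (adjusted p = 0.225), and Nr1h3, which encodes LXR alpha, was dimmer than the array median on each of the 9 arrays and was not tested. Nr1h2, which encodes LXR beta, had no single-symbol probe set and was not measured here.

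The third that rose was Lbr, a nuclear membrane protein with sterol reductase activity, by 0.16 (adjusted p = 0.047), a call lost in 14 of 22 alternatives (adjusted p = 0.0109 to 0.617). Hacd2, a dehydratase of fatty acid elongation, fell (log2 change -0.49, SE 0.11, adjusted p = 0.00982; 0.055 without WT replicate 3, 0.00203 to 0.055 across the alternatives). Tmem97, an SREBP target that regulates cholesterol traffic, fell (log2 change -0.39, SE 0.10, adjusted p = 0.0277), a call lost in 5 of 22 alternatives, without KO replicate 2, without KO replicate 3, without WT replicate 2, without WT replicate 3 and with only the 2 genotypes compared, at adjusted p of 0.0905, 0.0517, 0.113, 0.0638 and 0.0559 (0.00603 to 0.113 across the alternatives).

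Some markers of other cells also rose in KO vs WT. Of 18 myeloid markers 17 had a single-symbol probe set and 10 were tested. In KO vs WT, 4 of the 10 rose (Cd68, Lyz1, Lyz2 and Csf1r), and 6 did not pass, where 6.09% of all genes rose. The summed signal over 17 probe sets was 6927 to 7960 in KO, 6210 to 8076 in HET and 5920 to 7012 in WT. Most of it was Cst3, which is expressed in many cell types and had means of 4669 ± 681 in KO, 5703 ± 852 in HET and 5366 ± 483 in WT (SD, n = 3 each; not called). Without Cst3 the sum over 16 probe sets was 2507 to 3242 in KO, 989.5 to 2698 in HET and 888 to 1650.0 in WT. Of the list, Itgam, Cd14, Fcgr1, C1qa, C1qc and Mertk were dimmer than the median of every array. Cd68, a lysosomal protein of macrophages, had signals of 620.2, 623 and 455 in KO, 343, 327 and 325 in HET and 336, 388 and 334 in WT. Lyz1 and Lyz2, the lysozymes, which are close paralogs, had signals of 965, 549.7 and 927 in KO, 292, 60.1 and 441 in HET and 394, 126 and 113 in WT for Lyz1, and 411, 204 and 386 in KO, 151, 72 and 166 in HET and 170.1, 74.5 and 60 in WT for Lyz2. For these 3 markers, as for Abca1, Abcg1 and Cd36, every KO array lay above every HET and WT array. Csf1r, the receptor of macrophage growth factor, had signals of 187, 332 and 179 in KO, 77.6, 77.3 and 489 in HET and 115, 28.3 and 17.1 in WT, with KO above WT and HET replicate 3 above every KO array. The part of myeloid transcripts in the rises of Abca1, Abcg1 and Cd36 was not tested. Of 9 plasma cell markers 6 rose in KO vs WT (Prdm1, Irf4, Sdc1, Slpi, Ell2 and Edem1), where 6.09% of all genes rose. Xbp1, Jchain and Mzb1 did not pass, with changes of -0.051, -0.057 and -0.086. The summed signal over the 9 was 38090 to 41480 in KO, 32110 to 34970 in HET and 31930 to 33170 in WT. Much of its rise was Slpi, with means of 8493 in KO, 4971 in HET and 3940 in WT. The part of plasma cell transcripts in the rise of Abca1 was not tested. In sorted cells measured in bulk, more cells of a type and more RNA per cell cannot be told apart.

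**Figure D4:**
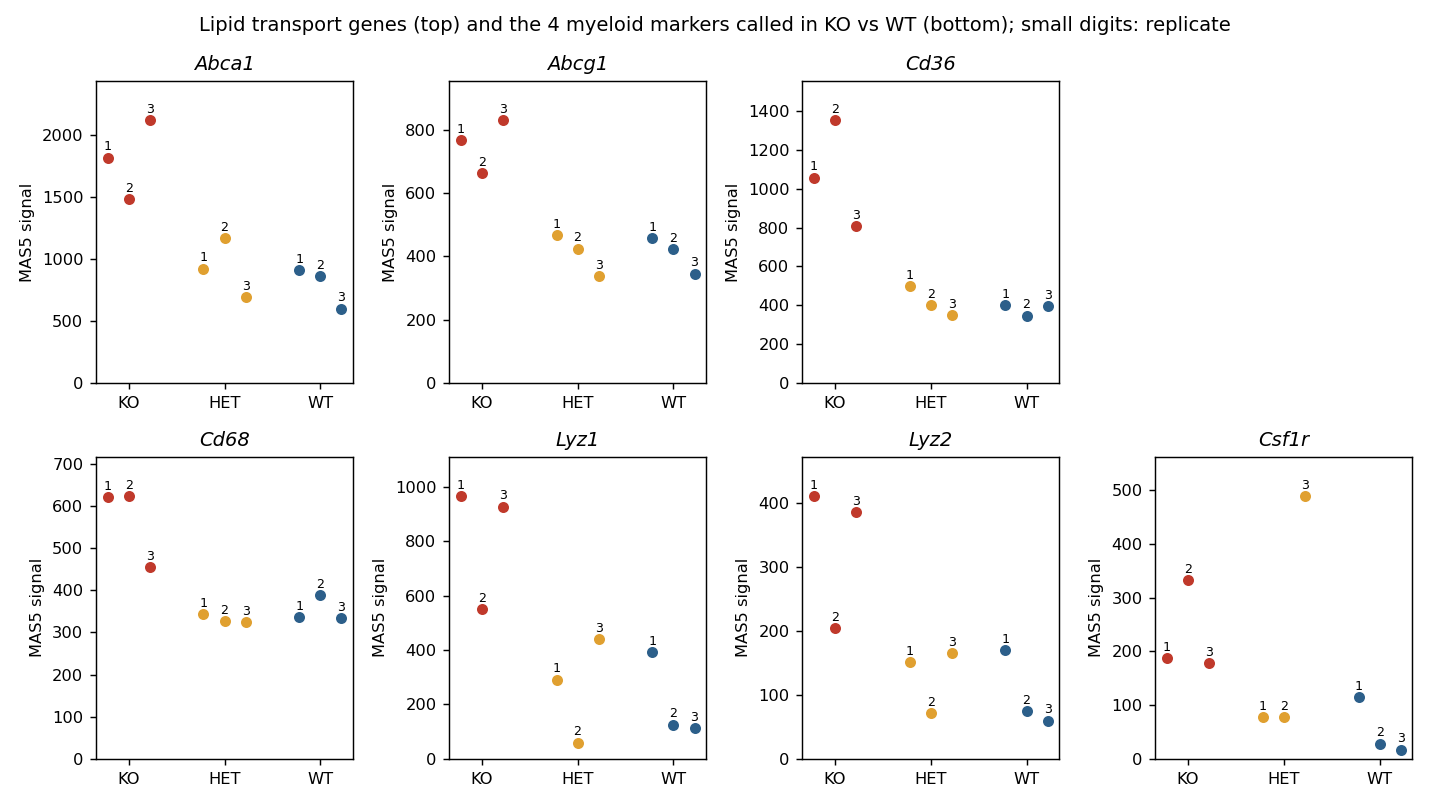
MAS5 signal (y axis, linear from 0) on each array of Abca1, Abcg1 and Cd36 (top) and of the 4 myeloid markers called in KO vs WT (bottom), KO left of HET and WT, with the replicate number above each point. The 3 transport genes and Cd68, Lyz1 and Lyz2 part the KO arrays from all others, and Csf1r is highest on HET replicate 3.

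Of the 11 fatty acid branch genes, 2 fell, 0 rose and 9 did not pass in KO vs WT by limma, where 5.85% of all genes fell and 6.09% rose. At an unadjusted p under 0.05 there were 5 of 11, and the share of all genes at that level is not given here. The core of the path gave small values. Acly, which makes cytosolic acetyl-CoA for both branches, had KO, HET and WT means of 8797 ± 276, 8356 ± 488 and 8319.7 ± 619 (SD, n = 3 each; KO vs WT 0.083, 95% interval -0.049 to 0.21). Acaca, the carboxylase that makes malonyl-CoA, had signals of 524, 621 and 539 in KO, 462, 558 and 500.2 in HET and 503, 519 and 450.2 in WT. Its KO arrays all lay above its WT arrays, with a change of 0.19 that did not pass (adjusted p = 0.304). Fasn, the synthase that builds palmitate, had KO, HET and WT means of 1121 ± 64.4, 1147 ± 156 and 1029 ± 39.5 (SD, n = 3 each; adjusted p = 0.467 in KO vs WT).

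Scd1 and Scd2, close paralogs that place the first double bond in saturated fatty acids, had positive changes that did not pass; cross-hybridisation between them was not tested. Scd1 had signals of 10276, 10639.9 and 11176 in KO, 10690.4, 9701 and 9930.1 in HET and 10008, 9374 and 10054 in WT. Its KO arrays all lay above its WT arrays, and the change of 0.12 did not pass (SE 0.052, adjusted p = 0.148). With the mean of its 2 probe sets the Scd1 change was 0.27 (adjusted p = 0.028; 0.028 to 0.965 across the alternatives). Scd2 had signals of 3909, 3145 and 4201 in KO, 3355, 3751 and 3345 in HET and 3294, 3084 and 3402 in WT. KO replicate 2 lay among the WT arrays, and the change of 0.19 (adjusted p = 0.22) came to 0.31 without that array (adjusted p = 0.0213; 0.0213 to 0.631 across the alternatives).

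Among the elongases, Elovl1, which extends saturated very long chains, had a KO vs WT value of 0.022 with an interval of -0.12 to 0.17. Elovl5, which extends polyunsaturated chains, had signals of 5454, 5548 and 5225 in KO, 5773, 5649 and 5624 in HET and 6061, 5611 and 5837 in WT. All KO arrays lay below all HET and WT arrays. A dimmer probe set gave -0.095 in KO vs WT, and there KO replicate 2 (4085) lay above WT replicate 2 (4008). The change of the brighter probe set was small, -0.11, and did not pass (adjusted p = 0.18). With each array centred on its median it was -0.23 (adjusted p = 0.0108; 0.0108 to 0.493 across the alternatives).

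Elovl6, which extends palmitate to stearate, did not follow the genotype in steps. Its signals were 407, 267 and 343 in KO, 1025, 1133 and 1182 in HET and 422, 401 and 1149 in WT. The 3 HET arrays and WT replicate 3 formed a high set, and the 3 KO arrays and WT replicates 1 and 2 a low one, with no array between 422 and 1025. Elovl6 fell, with a KO vs HET log2 change of -1.73 (SE 0.31, limma adjusted p = 0.00419). The KO vs WT change of -0.79 (adjusted p = 0.124) and the HET vs WT change of 0.94 (adjusted p = 0.998) did not pass.

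Leaving out WT replicate 3 moved both Elovl6 changes against WT, but only the HET vs WT call. Without it the KO vs WT change was -0.30 (adjusted p = 0.302; 0.0532 to 0.404 across the alternatives) and the HET vs WT change 1.43 (adjusted p = 0.0104; 0.0104 to 1 across the alternatives). A second Elovl6 probe set repeated the split, with signals of 46.7, 69.5 and 69.6 in KO, 145, 105 and 139 in HET and 45.2, 56.1 and 193 in WT. The third did not, with signals of 53.5, 53.4 and 88.3 in KO, 77.1, 67.7 and 66.4 in HET and 60.6, 56.2 and 93.4 in WT. With the mean of the 3 probe sets the KO vs HET change was -0.98 and not called (adjusted p = 0.0637; 5.85e-05 to 0.0637 across the alternatives). Elovl6, Fabp5, Fdps and Pmvk lie on chromosome 3, the chromosome of Foxo1, in the RefSeq annotation. Pmvk and Fdps did not pass in any comparison.

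The promoter of Elovl6 is shown because, of the 24 members with a promoter sequence, only Elovl6 holds the core letters of a forkhead (FOXO) site there. It is the 250 bases before the start in RefSeq on GRCm38.p6, chr3:129532136-129532385, + strand, with the match to TGTTTAC, which lies on the opposite strand, in capitals.

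Elovl6: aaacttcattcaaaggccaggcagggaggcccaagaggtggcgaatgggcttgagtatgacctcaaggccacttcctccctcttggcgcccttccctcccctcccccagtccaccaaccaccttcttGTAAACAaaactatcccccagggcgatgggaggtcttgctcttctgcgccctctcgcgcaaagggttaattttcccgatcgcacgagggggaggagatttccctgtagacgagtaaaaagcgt

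TGTTTAC, searched on both strands in the 250 bases before a start, was in 3.17% of 32851 promoters and in 1 of the 30 promoters of the 24 members. The match begins 123 bases before the Elovl6 start. It is a description of letters, and binding was not tested. The E-box CACGTG, which SREBPs can also bind, was in 6 of the 30 promoters listed for the 24 members, beside 6.02% of all promoters: those of Hsd17b7, Abca1, Insig1, Dhcr7, Sc5d and Elovl5. The CCAAT box, bound by NF-Y, a partner of SREBPs, was in 19 of the 30, beside 33.8% of all promoters.

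Of the 2 desaturases of polyunsaturated fatty acids, Fads2 was called and Fads1 was not. Fads2, the delta-6 desaturase, had signals of 509.6, 328 and 502 in KO, 704, 750.1 and 706 in HET and 639, 779.6 and 652 in WT. All KO arrays lay below all HET and WT arrays, with KO replicate 2 the lowest. Fads2 fell, its log2 change in KO vs WT being -0.65 (SE 0.15, limma adjusted p = 0.0154; 0.074 without WT replicate 2, 0.00409 to 0.074 across the alternatives) and -0.72 in KO vs HET (SE 0.15, adjusted p = 0.0118). The second Fads2 probe set had signals of 176, 162 and 157 in KO, 258, 224 and 239.7 in HET and 215, 239 and 262 in WT, also with no overlap between KO and the others, and the third, near the array median, differed the same way (-1.04 in KO vs WT). Fads1, the delta-5 desaturase that acts after Fads2, had KO, HET and WT means of 517 ± 41.4, 559.5 ± 97.4 and 523 ± 82.8 (SD, n = 3 each; KO vs WT -0.0095, 95% interval -0.32 to 0.30).

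Fabp5, which carries fatty acids in the cytosol, had signals of 1457, 1473 and 1098 in KO, 1739, 1913 and 2334 in HET and 1846, 1971 and 2178 in WT. All KO arrays lay below all HET and WT arrays. Fabp5 fell, its log2 change in KO vs WT being -0.58 (SE 0.13, limma adjusted p = 0.00995; 0.0537 without WT replicate 3, 0.00044 to 0.0537 across the alternatives) and -0.57 in KO vs HET (adjusted p = 0.0144; 0.0574 without HET replicate 3 and 0.0589 with eBayes without trend, 0.0003 to 0.0589 across the alternatives). Its second probe set had signals of 326, 299 and 271 in KO, 384, 487 and 459 in HET and 480.5, 529 and 499 in WT, again with every KO array below the others.

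**Figure D5:**
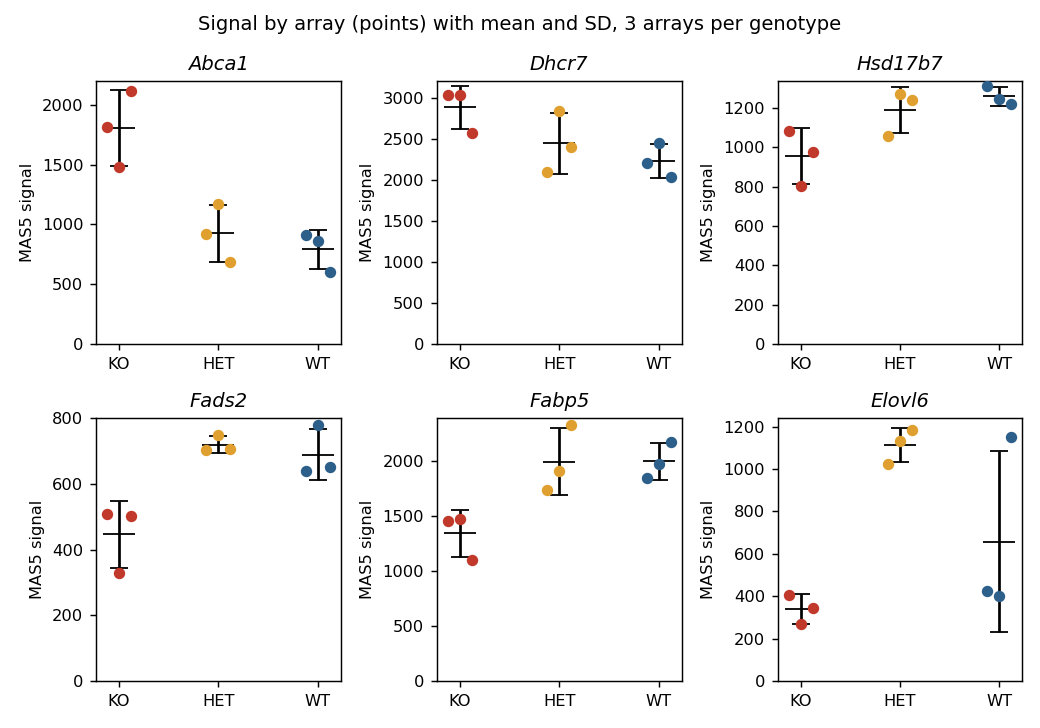
MAS5 signal (y axis, linear from 0) of the 6 members called in any comparison; points are arrays, the long bar is the mean and the whiskers the SD (3 arrays per genotype, KO left of HET and WT). HET lies with WT for Abca1, Fads2 and Fabp5, and Elovl6 is split within WT.

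None of the 5 members called in KO vs WT passed in HET vs WT. The HET vs WT changes were 0.22 for Abca1, 0.067 for Fads2, -0.0099 for Fabp5, 0.13 for Dhcr7 and -0.085 for Hsd17b7, with an adjusted p of 0.998 each. Their 95% intervals were -0.20 to 0.64, -0.26 to 0.40, -0.28 to 0.26, -0.11 to 0.36 and -0.32 to 0.15.

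Signals upstream of lipid synthesis were read from a list of 16 genes, of which 15 were tested. In KO vs WT 4 fell and 11 did not pass: Foxo1 itself, Akt1 (log2 change -0.34, SE 0.064, adjusted p = 0.00381), Insr, the insulin receptor gene (log2 change -1.01, SE 0.22, adjusted p = 0.00995) and Tsc22d3, a glucocorticoid-induced gene (log2 change -0.60, SE 0.16, adjusted p = 0.0269). Over all genes, 5.85% fell in KO vs WT. AKT signaling is known to raise SREBP activity. For Akt1 the call ended once its probe sets were averaged (adjusted p = 0.0723), for Insr without WT replicate 2 (adjusted p = 0.0501) and for Tsc22d3 in 5 alternatives, with mean of probe sets, with eBayes without trend, without KO replicate 2, without WT replicate 1 and without WT replicate 2, at adjusted p of 0.193, 0.0541, 0.0749, 0.0805 and 0.0946 (0.000631 to 0.0723 for Akt1, 0.00398 to 0.0501 for Insr and 0.0069 to 0.193 for Tsc22d3 across the alternatives).

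Of 15 proliferation genes tested, 2 fell (Ccna2 and Aurka) and 13 did not pass in KO vs WT, where 5.85% of all genes fell. The summed signal of the 15 was 77260 to 79420 in KO, 82990 to 83730 in HET and 82340 to 87760 in WT. The part of proliferation in the fall of Fads2 and Fabp5 was not tested. Of 3 T cell markers tested 0 passed by limma (1 had an unadjusted p below 0.05), and the 1 erythroid marker tested, Car2, fell (log2 change -0.77). The log2 ratio of 3′ to 5′ control probe sets of Actb, a measure of RNA integrity and labelling, was 1.13 to 1.26 in KO, 1.10 to 1.23 in HET and 1.09 to 1.24 in WT.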

How the data were processed

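The deposited values are linear signal intensities, 1 for each probe set on each array, made by the authors with MAS5 per the submitters' processing notes (version not given in the sources used here). With 2% of values trimmed from either end, every array had a mean of 500.0. Of 45101 probe sets, 34945 had 1 gene symbol, 932 several and 9160 none in the platform annotation, and 64 were controls. Signals were analysed as log2(signal + 2.09), the 10th percentile of all signals, which understates changes of dim genes. Probe sets reaching their array's median on at least 3 of 9 arrays were kept, and each gene was represented by its brightest kept one, the brightest of all for every member. All 31 measured members were above the array median on every array. Levels of different probe sets were not compared.

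Linear models over all 9 arrays were fitted with limma 3.58.1 (eBayes with trend) in R 4.3.3. A gene was called where its Benjamini-Hochberg adjusted p over 10331 genes was below 0.05 (two-sided), and all adjusted p-values in the text come from limma. On simulated data with known changes in KO vs WT over 10331 genes, 14% of 50 genes changed by 0.30, 60% of 50 changed by 0.60 and 88% of 50 changed by 1.00 (log2) were recovered. Replicate numbers follow accession order and are names only. Sex and batch are not given in the labels.

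Members, gene lists and motifs were chosen with earlier results of these data known. Named were all members, with values per array for those called, for regulators and for the smallest p-values, the called genes of the further lipid list (at most 8) and of the upstream list (at most 4), and marker lists of GC B, plasma, myeloid, T, erythroid and proliferating cells. Genes named in addition were chosen after their values were seen. Promoters are from RefSeq. For arrays, their number limits the precision.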

Additional observations from a re-analysis of the deposited data

How the results depend on the processing

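The 22 alternatives were another offset (0 or 16), quantile normalization, centring on the array median, no or a stricter filter, averaged probe sets, no shared-suffix probe sets, eBayes without trend, robust eBayes, array weights, Xist signal as a block, each array left out, and the 2 genotypes compared alone. Leaving out shared-suffix probe sets gave no value for Elovl1, Pmvk, Srebf1 and Tsc22d3. No paired analysis was possible because the labels give no pairing of arrays between genotypes. In these fits no called change of a named gene reversed its direction. The count of members called in KO vs WT (5) was 3 with eBayes without trend and 2 to 6 with 1 array left out; in HET vs WT (0) it was 0 to 1, the 1 being Elovl6 without WT replicate 3. For the sterol branch (2 called in KO vs WT) the count was 1 without the filter, 0 with eBayes without trend, 1 with array weights and 0 to 3 with 1 array left out, and for the fatty acid branch (2) it was 1 to 3 with 1 array left out and, in HET vs WT, 0 to 1. In KO vs HET the sterol branch count (0) was 2 with median centring, 1 with the mean of probe sets and 0 to 1 with 1 array left out. Centring on the median put the median KO vs WT change at -0.142 in the sterol branch and -0.0974 in the fatty acid branch, where the median over all genes was -0.11. The causes were not tested. In simulated KO vs WT data 14% of genes changed by 0.30 (log2) were recovered, so an uncalled gene may still have changed. Fits that leave a genotype with 2 arrays share the spread estimated over all groups.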
